A study of Mus musculus with 70 samples.

Results

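The cortex of the cerebellum was compared with the cortex of the cerebrum in adult mice. The cerebellar side held 15 libraries from 4 lobules, namely 4 of central lobule II (CENT2), 4 of culmen lobules IV-V (CUL4,5), 3 of the uvula (UVU) and 4 of the flocculus (FL). The cerebral side held 9 libraries, 3 each of the anterior cingulate area (ACA), the frontal pole (FRP) and the entorhinal area (ENT). These 24 of the 70 libraries of the series were chosen by their region labels alone, with no measured value, and each region counted equally within its side. All 24 came from untreated male C57BL/6NTac mice at postnatal day 56 with no transgene or deletion. Each library was bulk poly(A) RNA from tissue punches of several mice pooled together, so a library is neither 1 animal nor 1 cell type. Lobule punches were single and cortical punches bilateral. The study, an atlas of brain regions concerned with energy balance, counted ENT and the lobules among its additional regions.

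The cerebellar cortex is a layered sheet built on a single plan. Small granule cells, which take their input from mossy fibres, send parallel fibres to the dendrites of Purkinje cells, and the Purkinje cells are the only output of the sheet. Golgi, stellate and basket cells inhibit within it, unipolar brush cells relay input mainly in the vestibular lobules, and Bergmann glia wrap the Purkinje cell dendrites. The cerebral cortex is built of glutamatergic pyramidal cells, which carry its output, and of GABAergic interneurons that migrate in from the ventral telencephalon. The cerebellum arises from the first segment of the hindbrain next to the midbrain, and the cerebral cortex from the dorsal telencephalon, so that the transcription factors of their precursors differ.

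The promoter windows of 3 of the genes with the largest differences are shown because these genes stand for the sheets in the results. Pcp2 and Gabra6 are the markers of the cerebellar cortex used here, and Nrgn was the most abundant of the 15 genes with the largest deficit in the lobules. Each window runs from 250 bases before to 50 bases after the start of the RefSeq gene, 5′ to 3′ on the strand of the gene, from RefSeq on GRCm38.p6, and all 3 genes lie on the minus strand. Gene ranges given below are those of the GENCODE annotation, whose start lies a few bases inside the RefSeq start for Pcp2 and upstream of it for Nrgn. Capitals mark letters of the motifs TTGGCA (part of a nuclear factor I site), CAGATG (an E-box) and TGACG (part of a cyclic AMP response element), searched on both strands, and no matches overlapped in these windows.
Pcp2, chr8:3625498-3625797: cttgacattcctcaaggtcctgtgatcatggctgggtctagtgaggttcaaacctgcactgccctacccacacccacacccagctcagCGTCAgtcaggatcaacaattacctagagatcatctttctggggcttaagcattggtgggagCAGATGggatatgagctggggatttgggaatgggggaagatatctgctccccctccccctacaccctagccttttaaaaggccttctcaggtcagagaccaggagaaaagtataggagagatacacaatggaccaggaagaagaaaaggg
Gabra6, chr11:42321023-42321322: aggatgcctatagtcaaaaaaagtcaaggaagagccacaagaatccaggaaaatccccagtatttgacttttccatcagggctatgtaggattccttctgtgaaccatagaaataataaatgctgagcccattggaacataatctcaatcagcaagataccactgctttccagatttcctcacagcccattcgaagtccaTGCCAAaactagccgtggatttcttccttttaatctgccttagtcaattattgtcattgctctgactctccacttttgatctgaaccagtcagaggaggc
Nrgn, chr9:37552696-37552995: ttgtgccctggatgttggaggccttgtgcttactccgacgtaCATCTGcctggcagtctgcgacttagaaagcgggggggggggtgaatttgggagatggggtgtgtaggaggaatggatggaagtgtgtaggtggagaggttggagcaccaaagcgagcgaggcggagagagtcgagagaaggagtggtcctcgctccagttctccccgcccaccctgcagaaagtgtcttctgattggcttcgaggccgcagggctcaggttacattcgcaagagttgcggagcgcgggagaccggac
The Pcp2 window held CAGATG and, on the other strand, TGACG. The Gabra6 window held TTGGCA and the Nrgn window held CAGATG, each on the other strand. A window of Tbr1, searched in the same way and not shown, held none of these motifs. Of the 10925 tested genes with a window in the table, 11.2% held TTGGCA, 11.7% held CAGATG and 30.8% held TGACG. The shares were 13.4%, 14.1% and 23.7% among 1453 genes higher in the lobules and 10.7%, 13.5% and 22.9% among 1004 genes lower in the lobules. A match describes the letters only and is not a binding site.

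The libraries were of similar depth on both sides. Total estimated counts ran from 13409041 to 19070652 in the lobules and from 15173723 to 20647884 in the cortical libraries, and mitochondrial genes took 6.16% to 10.1% and 5.7% to 13.5% of TPM (transcript abundance corrected for length and scaled to the same sum in each library), with the highest share in ENT replicate 3. Over all genes, log2(TPM + 1) correlated between a lobule library and a cortical library at 0.9402 to 0.9585 over 135 pairs and between libraries of the same region at 0.981 to 0.9912 over 30 pairs, as a description. None of these 30 pairs agreed within sampling noise, so none was counted as 1 library.

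Both markers of the cerebellar cortex separated the tissues. Pcp2, a regulator of G protein signalling in Purkinje cells (chr8:3623371-3625545), was at 686 to 1980 TPM in the lobule libraries with a median of 1580, and at 0.191 to 1.56 TPM in the cortical libraries with a median of 0.98. Gabra6, the granule cell subunit of the GABA-A receptor (chr11:42306437-42321072), was at 227 to 749 TPM with a median of 548 in the lobules and at 0 to 0.334 TPM with a median of 0.0714 in the cortex. For both genes every lobule library lay above every cortical library by a wide margin.

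Some punches held RNA that is typical of neighbouring tissue, and it was unevenly spread over the libraries. FL stood apart from the other lobules in the oligodendrocyte list, whose 9 genes summed to a mean of 10800 TPM in FL against 1990 to 2990 TPM in CENT2, CUL4,5 and UVU and 718 to 1540 TPM in the cortical regions. FL also stood apart in genes of the brainstem and cerebellar nuclei, with a mean sum of 285 TPM against 23.0 to 26.5 TPM in the other lobules. Ttr, the thyroid hormone carrier made by choroid plexus, was at 1730, 2960, 608 and 30.2 TPM in the FL libraries and at 2030 TPM in UVU replicate 1, and at no more than 6.65 TPM in any other library. FRP replicate 3 stood apart on the cortical side in Doc2g, at 167 TPM against 19.4 and 31.2 TPM in the other FRP libraries, a gene known from the olfactory bulb, and in Ms4a15, at 63.5 TPM against 6.78 and 9.29 TPM. Ms4a15 was at no more than 0.0678 TPM in any ACA or ENT library, so the other FRP libraries also stood above those regions. Leaving out FRP replicate 3 alone thus does not remove the Ms4a15 signal from the cortical side. Results that rest on these libraries are therefore given with and without FL, or without FL, UVU replicate 1 and FRP replicate 3 together, a choice made after seeing the data.

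**Figure D1:**
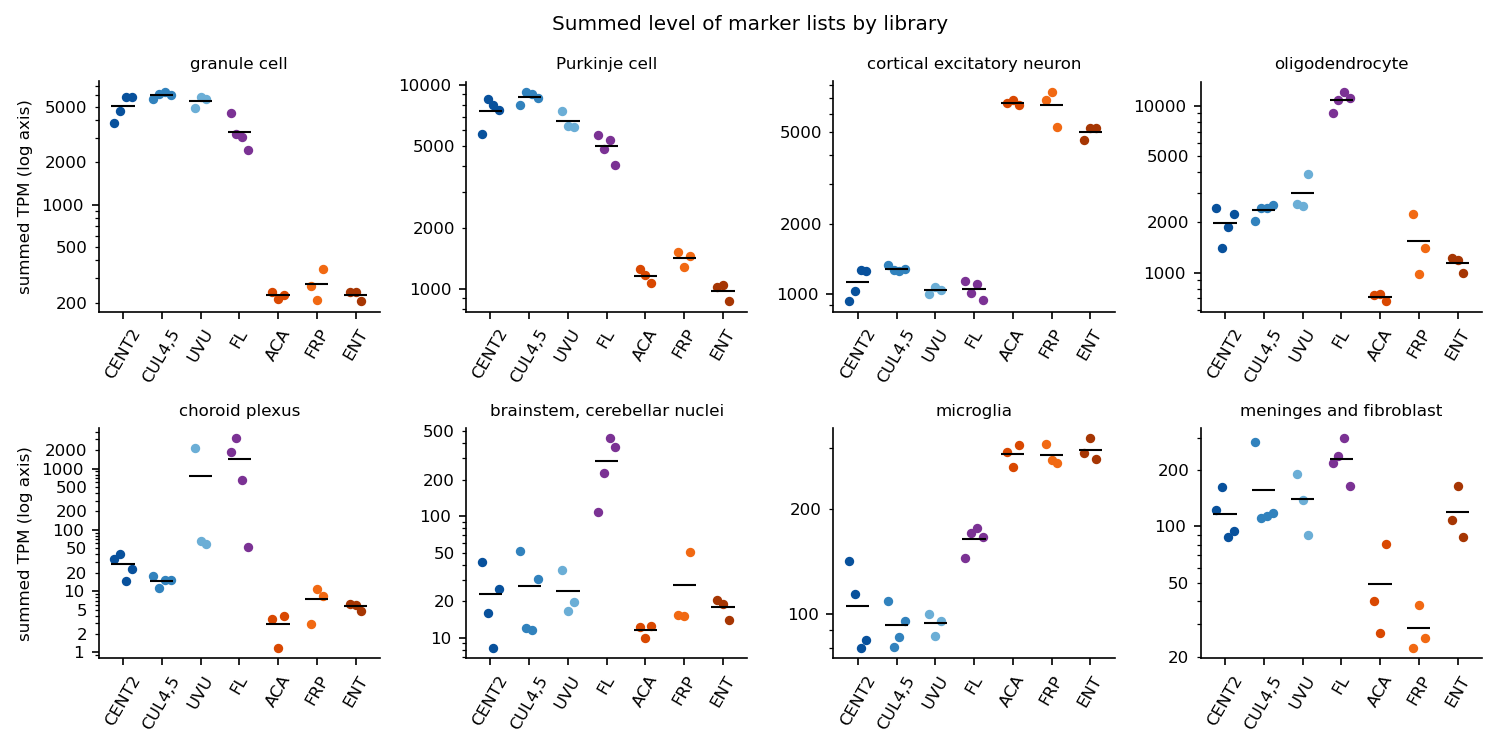
Summed TPM of 8 marker lists (log axis) in each library, by region, where points are libraries and bars are region means. The granule cell, Purkinje cell and cortical excitatory neuron lists part the lobules from the cortical regions, and FL stands above the other lobules in the oligodendrocyte list and in the list of brainstem and cerebellar nuclei.

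A large part of the transcriptome differed between the sheets. Of 15306 genes with a mean of at least 1 TPM over the 7 regions, 3423 (22.4%) differed at an adjusted p under 0.05 by more than 1 on the log2(TPM + 0.5) scale, in a limma fit with Benjamini-Hochberg adjustment over all tested genes, which also gave every adjusted p below. In this comparison 2008 genes (13.1%) were higher in the lobules and 1415 (9.24%) were lower. In 2535 genes (16.6%) all 15 lobule libraries lay above all 9 cortical libraries and in 1500 (9.8%) all lay below. A difference of more than 3 was reached by 185 higher and 221 lower genes, and one of more than 5 by 32 and 35. A gene expressed on 1 side only passed the filter through that side, so its difference follows from the filter and the side together.

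The balance of higher and lower genes depended on scaling, although the genes with large differences did not. The median log2 difference of all tested genes was 0.22 on the TPM scale. When the medians of the libraries were set equal, 1431 genes were higher and 1758 lower, and the share of higher genes among those called went from 58.7% to 44.9%. All 1431 were among the 2008 and all 1415 lower genes stayed lower. Without FL, 1890 of the 2008 and 1360 of the 1415 genes passed again, and without FL, UVU replicate 1 and FRP replicate 3, 1862 and 1345 did. In bulk tissue, fewer cells of a type and less RNA per cell cannot be told apart, and this holds for every difference below.

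**Figure D2:**
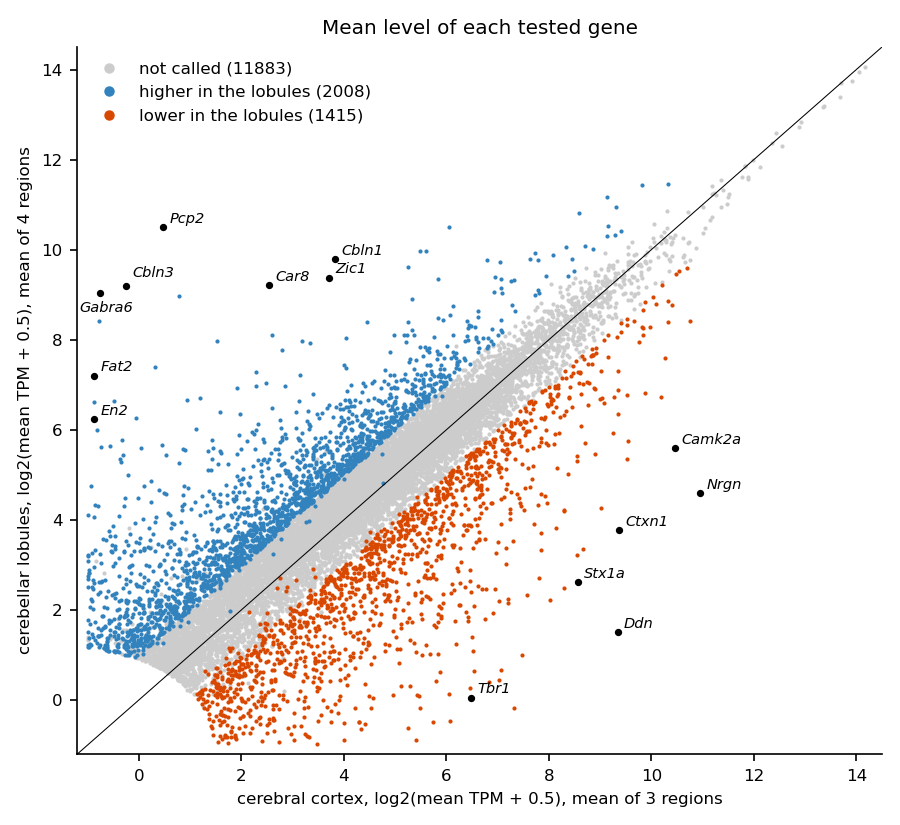
Mean level of each of the 15306 tested genes in the cerebral cortex (x axis) and the lobules (y axis) as log2(mean TPM + 0.5), each region counted equally, with the 2008 genes higher in the lobules in blue, the 1415 lower in orange and equal levels on the line. Pcp2, Gabra6 and Cbln3 lie far above the line, and Ddn, Nrgn and Camk2a far below it.

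The 15 genes with the largest excess in the lobules were led by genes of granule and Purkinje cells. Pcp2 differed by 10.02 ± 0.13 (log2, standard error; adjusted p = 1.6e-23) and Gabra6 by 9.74 ± 0.10 (adjusted p = 4.1e-25). Cbln3, a cerebellin that granule cells release at the parallel fibre synapse, was at 260 to 773 TPM with a median of 660 in the lobules and at 0.204 to 0.647 TPM with a median of 0.282 in the cortex, a difference of 9.40 ± 0.10 (adjusted p = 6e-25). Fat2, a giant cadherin of parallel fibres, was at 57.6 to 225 TPM and at 0.0136 to 0.0865 TPM, a difference of 7.98. These 3 granule cell genes, Gabra6 included, were below 1 TPM in every cortical library. Ppp1r17, the Purkinje cell phosphatase inhibitor known as G-substrate, was at 72.2 to 233 TPM in the lobules and at 0.131 to 2.87 TPM in the cortex, a difference of 7.23. Car8, which binds the IP3 receptor, was at 204 to 938 TPM and at 3.60 to 6.19 TPM, a difference of 6.54. In both genes the sides were far apart and the lobules spread over several fold.

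The others of these 15 were of more varied function. Cnpy1, a modulator of FGF signalling at the midbrain-hindbrain boundary, was at 137 to 447 TPM in the lobules and at most 0.307 TPM in the cortex, a difference of 9.13. Crtam, an adhesion molecule named for T cells, was at 40.1 to 148 TPM and at most 0.145 TPM, a difference of 7.43. Dao, the glial enzyme that oxidizes D-serine, was at 74.2 to 124 TPM and at most 0.404 TPM, a difference of 7.13. Dao was the most even of these genes over the lobules, with a range of region means of 0.38 (log2; adjusted p = 0.25 among lobules). En2 and Lhx1, homeobox factors of the cerebellum, and Hes3, a repressor of the Hes family, differed by 7.06, 6.25 and 6.33. Arhgef33, Bcl2l15 and Iltifb differed by 6.44, 6.30 and 6.79. Iltifb is a near copy of Il22, so reads may have been shared between the copies.

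The 15 genes with the largest deficit in the lobules were led by genes of pyramidal cell dendrites and of the telencephalon. Ddn, the postsynaptic protein dendrin, was at 403 to 981 TPM with a median of 554 in the cortical libraries and at 0.249 to 15.5 TPM with a median of 1.24 in the lobules, a difference of -8.36 ± 0.42 (adjusted p = 1e-12). Nrgn, the calmodulin-binding neurogranin (chr9:37544492-37552904), was at 1060 to 3030 TPM with a median of 1920 in the cortex and at 3.23 to 150 TPM with a median of 8.56 in the lobules, a difference of -7.32 ± 0.45 (adjusted p = 2.6e-11). The libraries did not overlap in either gene, as the rule that chose these 15 genes required, but the lobules varied widely. Nrgn was at 150, 15.2, 7.86 and 84.0 TPM in the CUL4,5 libraries and at 23.4, 8.56, 3.72 and 37.4 TPM in those of CENT2. Slc17a6, the glutamate transporter VGLUT2, was also highest in replicates 1 and 4 of these lobules, at 29.4 and 19.8 TPM in CUL4,5 against 1.35 and 0.233 TPM in the other pair, and at 18.9 and 12.6 TPM in CENT2 against 7.05 and 0.751 TPM. The part of this variation in the Nrgn difference was not tested.

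Other genes of the cortical set were close to absent from the lobules. Crym, the thyroid hormone-binding mu-crystallin, was at 117 to 262 TPM in the cortex and at most 1.07 TPM in the lobules, a difference of -7.58 ± 0.20. Tbr1, the T-box factor of early-born pyramidal cells, was at 67.5 to 107 TPM and at most 1.33 TPM, a difference of -6.47 ± 0.13. Neither gene overlapped between the sides, which the same rule required. Fezf2, a selector of subcerebral projection neurons, was at 28.6 to 55.2 TPM in the cortex and at 0 to 0.137 TPM in the lobules, a difference of -6.28. Stx1a, the presynaptic syntaxin, was at 241 to 514 TPM and at 2.08 to 20.3 TPM, a difference of -6.12. Ctxn1, the membrane protein cortexin, was at 584 to 738 TPM and at 2.51 to 46.2 TPM, a difference of -6.00. These genes thus ranged from a total lack in most lobule libraries to a low but measurable level.

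The last of the 15 lower genes were channels, receptors and signalling proteins. Kcnj4 and Kcnf1, potassium channel subunits, differed by -6.62 and -6.01. Icam5, the dendritic adhesion molecule telencephalin, differed by -6.60, and Gda, the guanine deaminase that also shapes dendrites, by -6.55. Chrm1, the muscarinic M1 receptor, differed by -6.52, and Egr3, an activity-regulated factor, by -6.17. Rtn4rl2, a receptor related to the Nogo receptor, differed by -6.41, and among the lobules it was at 0.65, 3.66, 11.7 and 8.34 TPM in FL and at no more than 0.341 TPM elsewhere.

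**Figure D3:**
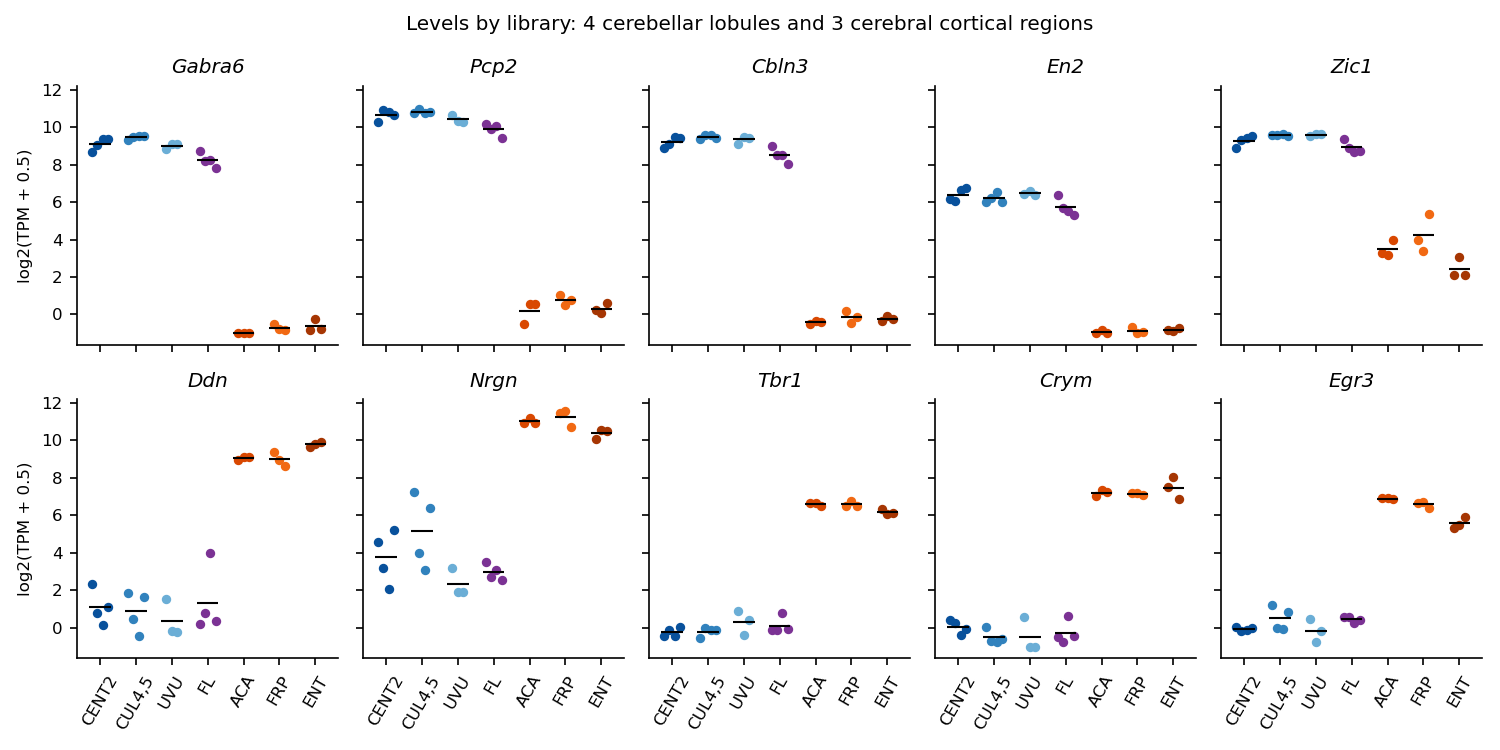
Levels of 5 genes higher in the lobules (top) and 5 lower in the lobules (bottom) as log2(TPM + 0.5), where points are libraries by region and bars are region means. No lobule library of any of the 10 genes falls within the cortical range, which the choice of genes required for all but Zic1. Nrgn and Ddn vary most among the lobules.

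The granule cell list was higher in the lobules without exception. All 13 genes measured were tested and all 13 passed, beside 13.1% of all genes, with a median of 4.60 against 0.22. In 12 every lobule library lay above every cortical one, beside 16.6% of all genes. The summed level was 2450 to 6350 TPM in the lobules and 204 to 345 TPM in the cortex. Cbln1, the cerebellin that acts at the synapse of parallel fibres, was at 488 to 1160 TPM with a median of 948 in the lobules and at 5.72 to 32.7 TPM with a median of 7.18 in the cortex, a difference of 6.23 ± 0.20. Zic1 and Zic2, zinc finger factors of granule cells and their precursors, differed by 5.96 and 4.97, and Neurod1, a bHLH factor of granule cells, by 4.60. Grm4, the presynaptic mGlu4 receptor of parallel fibres, differed by 4.08, and Gabrd, the GABA-A subunit of tonic inhibition, by 2.31. Etv1, an ETS factor that deep-layer pyramidal cells also express, overlapped at 79.5 to 240 TPM in the lobules and 49.8 to 101 TPM in the cortex, and its difference of 1.18 fell to 0.96, short of the threshold, when the medians were set equal.

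The Purkinje cell list was higher in 14 of 15 genes, beside 13.1% of all genes, with a median of 4.00. In 13 every lobule library lay above every cortical one, beside 16.6% of all genes. Its sum was 4060 to 9240 TPM in the lobules and 871 to 1520 TPM in the cortex. Slc1a6, the Purkinje cell glutamate transporter EAAT4, was at 77.7 to 238 TPM in the lobules and at 6.87 to 10.9 TPM in the cortex, a difference of 4.03 ± 0.11. Skor2, a corepressor of Purkinje cells, was at 3.51 to 12.9 TPM and at most 0.0306 TPM, a difference of 4.00. Pvalb, the calcium buffer parvalbumin, which cortical basket cells also contain, was at 749 to 1240 TPM and at 18.3 to 61.0 TPM, a difference of 4.58. Genes with a clear cortical level differed less. Calb1, the buffer calbindin, differed by 2.49, Rora, the nuclear receptor lost in staggerer mice, by 2.48, and Dner, a Notch ligand of Purkinje dendrites, by 1.88. Pcp4, a calmodulin modulator, was at 833 to 1760 TPM and 450 to 986 TPM, and its difference of 1.04 fell to 0.82 with medians set equal, to 0.87 without ENT, to 0.99 without FRP replicate 2 and to 1.00 without ENT replicate 3, where it was not called. Foxp2, a forkhead factor of Purkinje cells and of deep cortical layers, was at 2.35 to 17.4 TPM and 3.10 to 10.9 TPM and did not pass, with a difference of 0.40.

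In Purkinje cells, Gq and phospholipase C release calcium from stores by way of the IP3 receptor. Of 12 genes of this path, 8 were higher in the lobules and 1 was lower, beside 13.1% and 9.24% of all genes. The median was 2.10. Plcb4, a phospholipase C of Purkinje cells, differed by 2.88 and Itpr1, the IP3 receptor, by 2.25, and Itpr1 was at 433 to 1340 TPM in the lobules with a median of 968. Homer3, a scaffold of the IP3 receptor, was at 133 to 408 TPM in the lobules and at 3.66 to 7.72 TPM in the cortex, a difference of 5.48 ± 0.09. Pde5a, the cyclic GMP phosphodiesterase, differed by 1.97, and Prkg1, the cyclic GMP-dependent kinase, by 1.11, which fell to 0.89 and was not called with medians set equal. The path was thus higher at most of its steps but not at all. Gnaq, the G protein upstream of the phospholipase, differed by -0.40, not past the threshold of 1, and Gria3, an AMPA receptor subunit, was lower by -1.48.

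The markers of the smaller cell classes of the cerebellar cortex were mixed. All 4 unipolar brush cell genes were higher, beside 13.1% of all genes, with a median of 2.72. Eomes, the T-box factor of these cells and of cortical precursors, was at 8.14 to 48.1 TPM in the lobules and at 0 to 3.58 TPM in the cortex but for FRP replicate 3, where it was at 21.9 TPM, and its difference was 3.99. Among the lobules Eomes was highest in UVU, at 29.8, 40.6 and 48.1 TPM. Lmx1a, a LIM homeobox factor, was at 2.24 to 5.76 TPM in UVU and FL and at most 0.427 TPM in CENT2 and CUL4,5. Of 10 genes of Golgi and molecular layer interneurons, 4 were higher and 4 lower (median 0.43), beside 13.1% and 9.24% of all genes. With medians set equal, and in the count tests of edgeR and DESeq2, 2 were higher. Lgi2, at 1.06, and Slc32a1, at 1.16, lost their calls there, at 0.84 and 0.95 with medians set equal, and Lgi2 also without FL, at 0.91. Slc6a5, the glycine transporter of Golgi cells, differed by 4.22 and Tfap2b, a factor of molecular layer interneurons, by 4.71. Grm2, the mGlu2 receptor of Golgi cells, was lower by -1.67, and Sorcs3, Nxph1 and Ptprk were lower by between -1.25 and -1.24, genes that cortical neurons also express. Gad1 and Gad2, the GABA-synthesizing enzymes, differed by 0.78 and 0.09 and did not pass.

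Bergmann glia genes were all higher, 6 of 6, beside 13.1% of all genes, with a median of 2.45. Gdf10, a growth factor of the BMP family, was at 47.9 to 189 TPM in the lobules and at 1.55 to 7.47 TPM in the cortex, a difference of 5.08. A2m, a protease inhibitor, was at 24.1 to 73.7 TPM and at most 0.962 TPM, a difference of 5.55. Sept4, a septin of these glia, was at 698 to 1010 TPM and at 90.1 to 191 TPM, a difference of 2.72. None of these 3 overlapped between the sides. Hopx, Ednrb and Slc1a3 differed by 2.17, 1.94 and 1.24.

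Of 20 genes of cortical excitatory neurons, 15 were lower in the lobules and 1 was higher, beside 9.24% and 13.1% of all genes. Their median was -3.71. The sum was 4600 to 7440 TPM in the cortex and 934 to 1340 TPM in the lobules. Camk2a, the kinase of excitatory postsynaptic densities, was at 1090 to 1730 TPM in the cortex and at 24 to 86.3 TPM in the lobules, a difference of -4.95 ± 0.10. Lamp5, a membrane protein of upper layers and of some interneurons, differed by -5.16, but its libraries overlapped, at 50.5 to 128 TPM in FL and at 97.5 to 316 TPM in the cortex. Slc17a7, the transporter VGLUT1 that both pyramidal and granule cells use, was lower by only -1.48, at 338 to 548 TPM against 1140 to 1480 TPM. Nptx1, a neuronal pentraxin, was the member called the other way, by 1.29. Neurod2, a bHLH factor shared with granule cells, and Cux2, Tle4 and Nr4a2 did not pass, with differences of 0.96, -0.79, -0.60 and 0.23, although Neurod2 was called higher without FL, at 1.04, and without ACA replicate 2, at 1.00.

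The interneuron genes of the cerebral cortex were lower in 14 of 16 and higher in none, beside 9.24% and 13.1% of all genes. Their median was -3.59. The sum was 1910 to 2970 TPM in the cortex and 99.9 to 339 TPM in the lobules. Dlx1, the homeobox factor of interneuron precursors, was at 26.4 to 129 TPM in the cortex and at most 0.735 TPM in the lobules, a difference of -6.00, with 120 and 129 TPM in FRP replicates 1 and 3 and at most 40.4 TPM in the other cortical libraries. Vip, the peptide of disinhibitory interneurons, was at 22.4 to 47.8 TPM and at most 3.14 TPM, a difference of -5.26. Sst, the peptide of Martinotti cells, was at 454 to 1170 TPM and at 5.01 to 121 TPM, a difference of -4.18 ± 0.42. These 3 genes did not overlap between the sides, and Sst spread most widely over the lobules. Cort, the somatostatin relative cortistatin, differed by -4.12, Npy by -3.11 and Cck, a peptide of basket and pyramidal cells, by -3.63. Pnoc and Adarb2 did not pass, at -0.77 and -0.20.

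Transcription factors formed opposite sets. Of 18 factors of the midbrain-hindbrain region and the cerebellar primordium, 15 were tested and all 15 were higher in the lobules, with a median of 4.39. Atoh1 and Ptf1a, the selectors of cerebellar glutamatergic and GABAergic precursors, and Gbx2 had means under 1 TPM and were not tested. En2 was at 38.9 to 106 TPM in the lobules and at most 0.135 TPM in the cortex, and Barhl2, a homeobox factor of the rhombic lip, at 17.2 to 51.4 TPM and at most 0.886 TPM, a difference of 5.66. En1, its engrailed partner, was less even, at 7.53 to 18 TPM in CENT2, CUL4,5 and UVU and at 0.0376 to 0.395 TPM in FL, within or near the cortical range of 0 to 0.144 TPM. Barhl1, Zic4, Pax2 and Lhx5 differed by 5.11, 4.39, 3.78 and 4.11. Pax6, a paired-box factor of the rhombic lip that cortical precursors also use, was at 108 to 203 TPM and at 9 to 33.9 TPM, a difference of 3.46.

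Of 16 telencephalic factors, 14 were lower in the lobules and none was higher, with a median of -4.27. Emx1, the homeobox factor of the dorsal telencephalon, was at 13.8 to 24.9 TPM in the cortex and at most 0.382 TPM in the lobules, a difference of -5.0. Lhx2, a LIM homeobox selector of the cortex, was at 31.3 to 97.8 TPM and at most 5.62 TPM, a difference of -5.28. Bcl11b, the factor CTIP2 of subcerebral neurons, differed by -4.28 and its relative Bcl11a by -2.62. Nr2f1, a nuclear receptor of caudal cortical areas, overlapped and differed by -1.36. Id2, an inhibitor of bHLH factors, was higher in all 15 lobule libraries, at 183 to 274 TPM against 95.6 to 135 TPM, but its difference of 0.94 was under the threshold. Without FL, 2 of the 16 were called higher, Id2 at 1.01 and Neurod2 at 1.04. Most members of both sets were called, beside 22.4% of all genes in either direction.

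**Figure D4:**
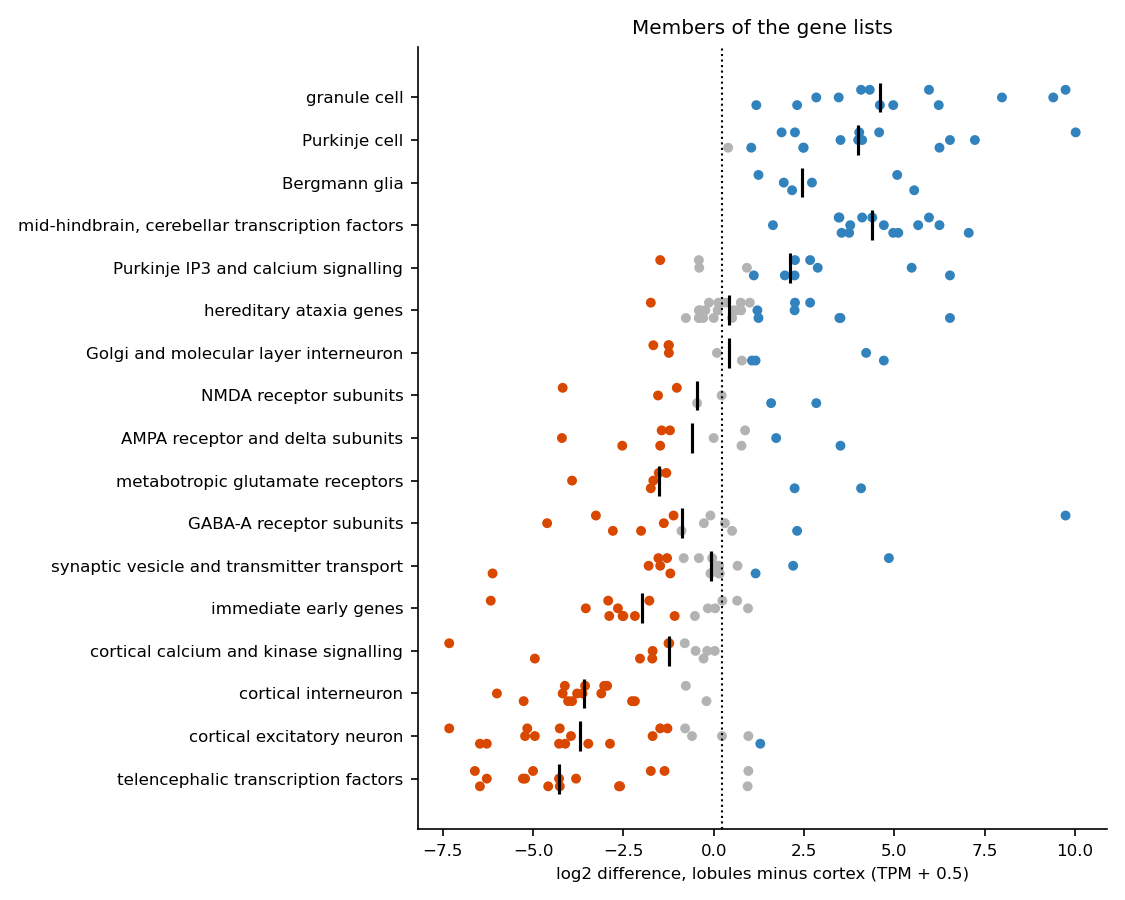
Log2 difference, lobules minus cortex, of each tested member of 17 gene lists, with higher genes in blue, lower in orange and those not passing in grey; bars mark the list medians and the dotted line the median of all tested genes, 0.22. The granule cell, Purkinje cell, Bergmann glia and midbrain-hindbrain lists lie on the right, the cortical and telencephalic lists on the left, and the receptor lists spread over both sides.

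The receptor families were split subunit by subunit. Of 7 NMDA receptor subunits, 2 were higher and 3 lower, beside 13.1% and 9.24% of all genes. Grin2c, the subunit of mature granule cells, was at 70.9 to 161 TPM with a median of 132 in the lobules and at 13.7 to 21.5 TPM with a median of 16.1 in the cortex, a difference of 2.84 ± 0.10 (adjusted p = 2.1e-16). Grin2b, a subunit of forebrain receptors, was at 1.57 to 8.93 TPM and at 72.9 to 109 TPM, a difference of -4.18 ± 0.21 (adjusted p = 2.3e-13). Each gene separated the libraries completely, in opposite directions. Grin2a, the other major subunit, was lower by -1.54. Grin3b, at 1.24 to 5.75 TPM against at most 0.411 TPM, was higher by 1.59, and Grin3a, lower by -1.02, was not called without FL, at -0.96, without ENT, at -0.89, without ENT replicate 1, at -0.97, or without CENT2 replicate 3 or FL replicate 3, at -0.99 each. Grin1, the obligate subunit, differed by -0.46 and did not pass.

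Among 10 genes of AMPA receptors, delta receptors and TARP partners, 2 were higher and 5 lower, beside the same shares of all genes. Grid1, a delta receptor, was lower by -1.44, at 8.51 to 16.7 TPM in the lobules and at least 27.5 TPM in the cortex. Gria4, the rapidly gating AMPA subunit, was higher by 1.73, and Gria2 and Gria3 were lower by -1.21 and -1.48. Gria1 was at 75.3 to 246 TPM and 140 to 195 TPM, a difference of 0.00 ± 0.08. Cacng3 and Cacng8, TARPs of the forebrain, were lower by -4.20 and -2.53, whereas Cacng2, the TARP mutated in stargazer mice, and Cacng7 differed by 0.77 and 0.87 and did not pass, although all lobule libraries lay above all cortical ones in both.

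Of 7 metabotropic glutamate receptors, 2 were higher and 5 lower, beside 13.1% and 9.24% of all genes, with a median of -1.52. Grm4 was at 138 to 372 TPM in the lobules and at 9.83 to 32.4 TPM in the cortex, a difference of 4.08. Grm5, the Gq-coupled mGlu5 receptor, was at 1.04 to 15.9 TPM and at 57.1 to 106 TPM, a difference of -3.92. Grm2, Grm3, Grm7 and Grm8, which couple to Gi, were lower by between -1.74 and -1.31.

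Of 13 GABA-A receptor subunits, 2 were higher and 6 lower, beside 13.1% and 9.24% of all genes. The higher ones were Gabra6 and Gabrd, which assemble into extrasynaptic receptors of granule cells. Gabra5, the extrasynaptic subunit of forebrain pyramidal cells, was at 0.325 to 24 TPM in the lobules and at 59.5 to 105 TPM in the cortex, a difference of -4.61. Gabra3, at 3.80 to 23.2 TPM against 74.7 to 119 TPM, was lower by -3.26, and Gabrg3, Gabra4 and Gabra2 were lower by -2.79, -2.01 and -1.38. Gabrb2, at 40.3 to 109 TPM against 31.1 to 86.2 TPM, differed by 0.31 and did not pass.

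The opposition of relatives was followed in 16 paralog pairs, which were picked for such a pattern, so the number that fit it is no test. The measure was the share of the summed TPM of a pair that the first gene took in each library. In 9 pairs the first gene was higher and the second lower in the lobules, and in 13 pairs the shares of the lobule and cortical libraries did not overlap. Grin2c took 94.2% to 99% of the Grin2c and Grin2b sum in the lobules and 12.6% to 20.4% in the cortex. Homer3 took 77.2% to 93.0% of its sum with Homer1 against 1.97% to 7.70%, where Homer1, the main Homer of the forebrain, was lower by -2.04. Plcb4 took 83.3% to 92.8% of its sum with Plcb1 against 16.6% to 34.1%. In each of these 3 pairs the first gene held most of the sum in every lobule library and less than the second gene in every cortical library.

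The other pairs differed in how far the share moved. Syt2, the rapid calcium sensor of vesicle release, took 34.2% to 60.3% of its sum with Syt1 in the lobules and 0.581% to 1.31% in the cortex, and Slc1a6 took 28.1% to 56.9% of its sum with Slc1a2 against 1.30% to 2.66%. Camk4 took 63.7% to 80.4% of its sum with Camk2a against 2.46% to 4.62%. Neurod1 took 94.3% to 99.2% of its sum with Neurod6 and Cbln1 99% to 100% of its sum with Cbln2, against 4.10% to 26.2% and 6.92% to 77.7%. Cbln2 was itself uneven over the cortex, at 39.6 to 77.4 TPM in ACA and FRP and at 5.15 to 9.39 TPM in ENT. In 3 pairs the second gene did not change past the threshold, with Vamp2 at -0.83, Gria1 at 0.00 and Car10 at 0.18, where Car10 changed its sign between settings. In 2 pairs both genes were higher, Pvalb with Calb2 and En2 with En1. In the last 2 the first gene did not pass, namely Ryr1 at 0.92 and Cacng7 at 0.87.

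**Figure D5:**
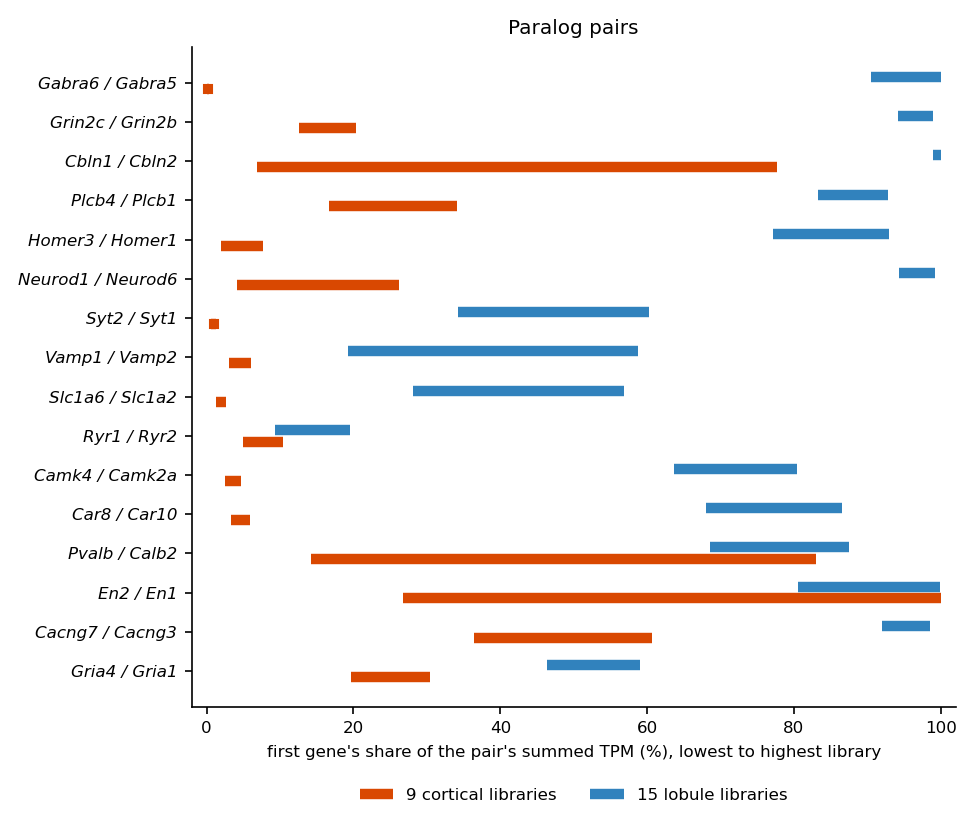
Share of the summed TPM of 16 paralog pairs that the first gene took (%), with bars from the lowest to the highest of the 9 cortical libraries (orange) and of the 15 lobule libraries (blue). The bars of 13 pairs do not overlap, whereas those of Ryr1, Pvalb and En2 do.

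Genes of vesicle release and transmitter transport were lower in 6 and higher in 3 of 18, beside 9.24% and 13.1% of all genes, with a median of -0.06. Stx1a was the extreme, lower by -6.12. Snap25, its SNARE partner, differed by -0.04, at 2050 to 2760 TPM against 1660 to 3040 TPM. Syn1 and Syn2, the synapsins that tether vesicles, were lower by -1.53 and -1.2 with no overlap. Vamp1, the synaptobrevin of rapidly firing neurons, was higher by 2.20, at 307 to 619 TPM in FL and at 168 to 242 TPM in the other lobules. Slc32a1, the vesicular GABA transporter, was higher by 1.16, and its call was lost at 0.95 with medians set equal.

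Of 12 genes of calcium and kinase signalling at cortical excitatory synapses, 7 were lower and none higher, with a median of -1.24. Among all genes, the shares were 9.24% and 13.1%. Apart from Nrgn and Camk2a, Homer1, Plcb1 and Itpka, the IP3 kinase of dendritic spines, were lower by -2.04, -1.70 and -1.69, and Shank1, a scaffold of the postsynaptic density, and Prkcb by -1.25 and -1.23. Camk2b, the second subunit of the kinase, was at 238 to 584 TPM in the lobules and 369 to 535 TPM in the cortex and differed by 0.03. The large deficit of Camk2a was thus not shared by its partner. Ryr2, Rasgrf1, Ppp3ca and Dlgap1 differed by between -0.80 and -0.18 and did not pass.

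Immediate early genes, which neurons switch on within minutes of activity, were lower in 10 of 16 and higher in none, with a median of -1.98. Among all genes, 9.24% were lower and 13.1% higher. Egr3 was at 39.3 to 122 TPM in the cortex with a median of 101 and at 0.0946 to 1.8 TPM in the lobules with a median of 0.535, a difference of -6.17 ± 0.15. Arc, the protein that remodels active synapses, was at 50.5 to 296 TPM and at 9.35 to 30.3 TPM, a difference of -2.89. Egr1, at 99.5 to 283 TPM against at most 65.6 TPM, was lower by -2.50, Junb by -2.52 and Npas4, a factor induced by calcium entry, by -2.65. In these 5 genes the sides did not overlap. Fos itself was at 13.5 to 123 TPM in the lobules and 18.4 to 104 TPM in the cortex, a difference of 0.04 ± 0.39 whose sign changed between settings. Jun and Ier2 differed by 0.24 and 0.95 and did not pass, although Ier2 was called higher without FL, at 1.01, and without ACA replicate 2, at 1.11.

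Genes of hereditary ataxias, disorders in which the cerebellum degenerates, passed in 9 of 28 tested, beside 22.4% of all genes, with 8 higher and 1 lower and a median of 0.43. Car8 and Itpr1, described above, were among the higher ones. Elovl5, a fatty acid elongase, was higher by 1.24, at 54.5 TPM or more in the lobules and 22.6 to 36.1 TPM in the cortex. Ppp2r2b, a phosphatase subunit, was lower by -1.74, at 33.1 to 65.8 TPM against 130 to 168 TPM. Atxn1, the ataxin with a repeat expansion, differed by -0.77 and Cacna1a, the P/Q-type calcium channel of Purkinje cells, by 1.00, at 128 to 283 TPM against 79.3 to 136 TPM, and neither was called.

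Genes linked to obesity were compared as 3 lists. Of 25 genes of syndromic obesity, most of them genes of the primary cilium, 2 were higher and none lower, with a median of 0.04. Among all genes, 13.1% were higher and 9.24% lower. Inpp5e, the ciliary phosphatase, was at 34.6 to 56.1 TPM in the lobules and at 13.1 to 18.8 TPM in the cortex, a difference of 1.49, and Alms1, the basal body protein of Alström syndrome, at 6.86 to 19.3 TPM and 1.95 to 4.18 TPM, a difference of 2.11. The libraries did not overlap in either gene. Of 9 genes of monogenic obesity, 7 were tested, and 2 were lower and none higher, beside the same shares of all genes. These were Pcsk1, the prohormone convertase, at -1.12, and Bdnf, the neurotrophin, at -1.07. The Bdnf call was lost without FL, at -0.79, and without UVU replicate 1, at -0.99. Ntrk2, the receptor of Bdnf, differed by -0.54 and did not pass. Of 172 tested genes among 190 associated with obesity in the study, a list the study compiled, 20 were higher and 17 lower, beside 13.1% and 9.24% of all genes, with a median of 0.15. With medians set equal 15 were higher and 21 lower, beside 1431 higher and 1758 lower of all 15306 tested genes in that scaling. Cbln1 and Tfap2b, at 6.23 and 4.71, and Skor1, at 3.99, were the highest of them, and Doc2a, a calcium sensor of spontaneous release, Grp, a peptide of pyramidal cells, and Lrfn2, a synaptic adhesion molecule, at -4.85, -3.55 and -3.47, the lowest.

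Glial lists differed in both directions. All 8 microglia genes were lower in the lobules with no overlap, with a median of -1.56. Among all genes, 9.24% were called lower and 9.8% lay below with no overlap. The microglia sum was 79.9 to 176 TPM in the lobules and 265 to 319 TPM in the cortex. Cx3cr1, the fractalkine receptor, was at 3.68 to 10.1 TPM in the lobules and 19.2 to 27.1 TPM in the cortex, and P2ry12, the nucleotide receptor of resting microglia, at 4.98 to 12.2 TPM and 21.8 to 39.6 TPM. Among the lobules the mean microglia sum was highest in FL, at 165 TPM. Of 8 astrocyte genes, 4 were higher and 1 lower, beside 13.1% and 9.24% of all genes. Agt, angiotensinogen, was at 69.1 to 167 TPM in the lobules and 2.59 to 28.4 TPM in the cortex, a difference of 3.86, and Aqp4, the water channel of astrocyte endfeet, at 124 to 196 TPM and 13.5 to 37.4 TPM, a difference of 2.56. Slc1a2, the glutamate transporter GLT-1, went the other way by -1.38, at 134 to 225 TPM against 373 to 522 TPM. Fgfr3 and Aldh1l1, at 0.05 and 0.59, did not pass.

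In the remaining lists of other cell types, part of the calls depended on single regions or libraries. Among all genes, 13.1% were higher and 9.24% lower. All 9 oligodendrocyte genes were higher, with a median of 1.73, but in 8 the libraries overlapped, and 7 were called without FL. Mbp, the myelin basic protein, was at 643 to 6540 TPM in the lobules with a median of 1250 and at 322 to 1140 TPM in the cortex. Of 5 precursor genes, Pdgfra and Gpr17 were lower, by -1.06 and -1.2, and Pdgfra was not called without ENT, at -0.86. Of 7 choroid plexus genes 5 were higher, 4 without FL and 2 without FL, UVU replicate 1 and FRP replicate 3, with summed levels of 11.3 to 3100 TPM in the lobules and 1.19 to 10.9 TPM in the cortex. Ttr differed by 3.16, by 1.36 without FL and by 0.40 without these libraries, and lost its call in both. Clic6, an ion channel protein, and Otx2, a homeobox factor, were called in all of these settings, at 3.99 and 4.42 over all libraries. Otx2 was at 44.4 to 51.9 TPM in UVU, 15.2 to 29.5 TPM in FL and 2.79 to 7.12 TPM in CENT2 and CUL4,5. All 7 genes of meninges and fibroblasts were higher, with a median of 1.35, but 6 without FL, 5 without FL, UVU replicate 1 and FRP replicate 3, and 5 with medians set equal. Ogn lost its call in all of these, at 0.82, 0.78 and 0.92, and without ACA replicate 2, and Slc6a13 in the latter pair, at 1.00 and 0.96. The summed levels of 88.1 to 297 TPM overlapped with those of ENT, at 87.6 to 164 TPM. Dcn, a member called at 1.35 on the log2 scale, had nearly equal mean levels, 27.7 TPM in the lobules and 26.6 TPM in the cortex. It was at 17.7 to 44.4 TPM in the lobules and at 2.11 to 104 TPM in the cortex, and was not called with regions as units. The part of these cells in the differences of other genes was not tested.

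Red cell genes were higher in 3 of 5, beside 13.1% of all genes, and in none without FL. Hba-a1 and Hba-a2, and likewise Hbb-bs and Hbb-bt, are near copies whose reads may have been shared. Of 3 tested genes of the brainstem and cerebellar nuclei only Spp1 was higher, by 1.53, at 69.7 to 378 TPM in FL against 4.59 to 22.5 TPM in the other lobules, and it was not called without FL. None of 7 endothelial genes passed, with differences of 0.29 to 0.51. Markers of the striatum and the hippocampus were split, 2 of 7 and 2 of 5 higher and 3 and 3 lower. Among all genes, 13.1% were higher and 9.24% lower. Ppp1r1b and Penk were the higher ones of the striatum, and Calb1 and Prox1 those of the hippocampus.

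The 4 lobules differed from one another in 1432 of the tested genes (9.36%), by an F test at an adjusted p under 0.05 and a range of region means above 1. FL was the highest lobule in 618 and CENT2 in 386 of them, and without FL 499 genes differed among the other lobules. The 5 genes with the largest range were Ttr, Ccdc153, Tmem212, Gm10080 and Gm20721. Ttr led by 9.38, and Ccdc153 and Tmem212, genes of motile cilia as in ependyma, were highest in CENT2, Ccdc153 at 87.7 to 343 TPM there and at no more than 34.1 TPM in the other lobules, and Tmem212 at 18.7 to 93.0 TPM and at no more than 9.41 TPM. Gm10080 and Gm20721 were near 0 in some libraries and high in others, with Gm20721 at 499, 417, 5.47 and 0 TPM in CENT2. Such all-or-none values of predicted gene models were treated as uncertain. Of the genes called between the sheets, 758 also differed among the lobules. The granule cell genes were lowest in FL, with sums of 2450 to 4490 TPM there and 3840 to 6350 TPM in the other lobules.

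The 3 cortical regions differed in 675 genes (4.41%), and without ENT, which was the highest in 221 and the lowest in 359 of them, 91 differed between ACA and FRP. Trbc2, a constant segment of the T cell receptor, was at 67.3, 86.8 and 75.9 TPM in ACA and 41.2, 59.2 and 64.7 TPM in FRP, and at 0.685 to 2.46 TPM in ENT. Tnnc1, the slow troponin C, was at 101 to 175 TPM in ACA and FRP and at 3.90 to 9.01 TPM in ENT. The isocortical regions were thus far apart from ENT in both genes, and the lobules were at the level of ENT, with at most 1.5 TPM of Trbc2 and 2.72 to 7.32 TPM of Tnnc1. Doc2g and Ms4a15 were highest in FRP replicate 3, as given above. Rpl27-ps3, a ribosomal pseudogene, was at 0.000116, 51.8 and 0 TPM in ENT and was treated as uncertain. Of the genes called between the sheets, 371 also differed among the cortical regions.

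The 33 other adult libraries of the series, from 11 regions, showed how particular the extremes were to each sheet, as a description with no test. For 14 of the 15 genes with the largest excess, the lowest lobule library lay above every one of them. Dao was the exception, at 63.2 to 75.5 TPM in the cerebellar nuclei (CBN) against 74.2 TPM in the lowest lobule library. The CBN libraries came next for the cell markers, with Pcp2 at 230 to 514 TPM and Gabra6 at 28.7 to 84.8 TPM there, while outside CBN the highest values were 42.6 TPM for Pcp2 in the parabrachial nucleus and 3.40 TPM for Gabra6 in the dorsal vagal complex.

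The cortical extremes were less exclusive. For 6 of the 15 genes with the largest deficit, namely Nrgn, Tbr1, Rtn4rl2, Fezf2, Stx1a and Kcnf1, the lowest cortical library lay above all 33 other adult libraries. For the other 9 the nucleus accumbens (ACB), which is also telencephalic, held the highest value, such as 734 TPM for Ddn and 477 TPM for Crym, against lowest cortical libraries of 403 and 117 TPM. Those genes were thus shared by the cerebral cortex and ACB. That no lobule library reached the lowest cortical value of any of the 15 follows from the rule that chose them.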

How the data were processed

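RNA-Seq libraries were made by the authors from pooled tissue punches and sequenced as single reads, with base calling in CASAVA 1.8.2 per the labels. The deposited TPM values were computed by the authors with kallisto on GRCm38 transcripts, scaled within each library and summed per gene, for 34677 genes. The deposited estimated counts, from the same kallisto run and given per transcript, were not normalized between libraries. They were summed here over the 104924 of 109282 transcripts that matched a gene and rounded, and they gave the depth and the count alternatives. Genes whose matched transcripts did not give the gene TPM, 345 in number, were left out of count tests.

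The main test was limma 3.58.1 in R 4.3.3 on log2(TPM + 0.5), with a group for each of 7 regions, the mean of 4 lobules against the mean of 3 cortical regions, and eBayes with trend and robust options. Genes needed a mean of at least 1 TPM over the regions, and 15306 were tested. Calls needed an absolute log2 difference above 1 and a Benjamini-Hochberg adjusted p under 0.05. Because 0.5 TPM was added before taking logs, a difference understates the change of genes of low level. It was tested on simulated data. Alternatives used other pseudocounts, filters and scalings, edgeR 4.0.16 and DESeq2 1.42.0 on the counts, all 57 adult libraries, a replicate block, and left out regions or libraries.

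Libraries were grouped by region label. Samples were collected in several batches, which regions share in part. The sources list them by region and do not tie them to a library, so no value within batches was computed and the part of batch was not tested. The libraries are pools of mice, and the p-values measure the spread between pools of the same region. The study used fewer adult mice than separate pools for every library would need, so the same mice recur among the libraries. The fit treated the libraries as independent, and the part of shared mice was not tested. The members, gene lists and pairs were chosen with earlier results of these data known. Genes named were, of those called with no overlap between the sides and at least 20 TPM on the higher side, the 15 with the largest difference in each direction, without predicted genes; members of each list; the pairs; and the 5 genes with the largest range among lobules and among cortical regions. Nrgn, Slc17a6, En1, Rtn4rl2, Cbln2 and a few members that did not pass were singled out after their values were seen. Some genes and 4 of 20 pairs are not reported here, although counts over lists and over all genes include them. Gene positions are from GENCODE and promoter windows from RefSeq, on GRCm38 and GRCm38.p6. Depth was 13409041 to 20647884 estimated counts per library. TPM carries no count interval, so precision is given as the spread between libraries.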

Additional observations from a re-analysis of the deposited data

Results flagged for a closer look

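In 219 groups of 4 libraries the highest or lowest library was compared with the gap to its nearest neighbour (Dixon's test), and 11 stood apart, where chance gives about 1 in 20 groups. FL replicate 3 was the highest of its region in 3 cortical genes, with Ddn at 15.5 TPM against 0.643 to 1.24 TPM in the other FL libraries, Crym at 1.07 TPM and Tbr1 at 1.2 TPM, all still far under the cortical level. CENT2 replicate 1 was the lowest of its region in Car8, at 532 TPM against 826 to 852 TPM, and in the sum of the hereditary ataxia list, at 3820 TPM, and the highest in Trbc2, at 1.5 TPM. CENT2 replicate 2 was the highest in Gm10080, at 4.48 TPM, and the lowest in total estimated count, at 15500000. CUL4,5 replicate 1 was the highest in the sums of the list of meninges and fibroblasts, at 284 TPM, and of the red cell list, at 2860 TPM. CUL4,5 replicate 2 was the highest in the sum of the striatum list, at 470 TPM. The causes were not tested.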

How the results depend on the processing

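The counts of 2008 higher and 1415 lower genes stayed within 1.5 times of these values in all alternatives run but 1, DESeq2 on the estimated counts, with 2446 lower genes (2102 in edgeR). Leaving out single libraries gave 1942 to 2068 higher and 1388 to 1457 lower genes. Of 229 called genes among 255 followed by name, 196 kept their call and direction in every alternative, and the 33 others lost it in at least 1, most often with regions as units or without FL, UVU replicate 1 and FRP replicate 3 (17 genes each), and 13 without FL. The number of genes that differed among the lobules went from 1432 to 499 without FL and to 484 without FL and UVU replicate 1, and lay between 1201 and 1671 without single libraries. The number that differed among the cortical regions went from 675 to 91 without ENT, and lay between 562 and 812 without single libraries. These fits compare fewer regions and libraries by construction.

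Genes that changed sign had small differences or all-or-none values. Gm20721 was at -1.18 and at 0.21 without FL (0.21 also without FL, UVU replicate 1 and FRP replicate 3, and down to -1.91 without single libraries), Rpl27-ps3 at 1.08 and at -0.49 without ENT, and Ryr2 at -0.18 and at 0.05 without FL, UVU replicate 1 and FRP replicate 3 (-0.22 at the lowest without single libraries). Car10, at 0.18, was at -0.03 with medians set equal, -0.08 in edgeR, -0.08 in DESeq2 and -0.11 without ENT. Fos, at 0.04, was at -0.17 with medians set equal, -0.02 without FL and -0.03 without ENT, and between -0.13 and 0.21 without single libraries. The cause was not tested.

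With the replicate number as a block, 2049 genes were higher and 1418 lower, 1431 differed among the lobules and 668 among the cortical regions. Deviations of libraries with the same number correlated at -0.164 to 0.284, with a median of -0.007 over 66 pairs, of which 8 were over 0.1. With different numbers the range was -0.283 to 0.238 and the median -0.002 over 180 pairs, of which 8 were over 0.1. Libraries with the same number thus did not deviate together as a rule, although pairs over 0.1 were a larger share of them, 8 of 66 against 8 of 180. Whether single numbers share mice or batches was not tested. TPM carries no counting error, so what depth limits was not quantified.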
